A study of Mus musculus with 4 samples.

Results

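The genes examined were 10 that write, erase or read N6-methyladenosine (m6A) in mRNA, namely Mettl3, Mettl14, Wtap, Zc3h13, Rbm15, Fto, Alkbh5, Ythdf1, Ythdf2 and Ythdc1. They were chosen by symbol, and all 10 were found among the 55450 features of each library. Levels were followed in tumours grown under the skin of C57BL/6J mice from Hnrnpa2b1 knockout (KO) MC38 cells and from wild-type (WT) MC38 cells. MC38 is a mouse colon carcinoma line, and the mice were 8 weeks old at injection. Each group held 2 tumours, and each tumour gave 1 library of single cells on the 10x Genomics platform. The knockout lies in the injected cells only, so host cells in both groups carry intact Hnrnpa2b1. Neither the position of the edit nor the number of knockout clones is given by the labels.

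m6A is placed on mRNA in the nucleus by a complex around the METTL3 and METTL14 proteins. METTL3 carries out the methyl transfer from S-adenosylmethionine, and METTL14 holds the RNA and has no catalytic activity of its own. WTAP, ZC3H13 and RBM15 belong to the adaptor part of the complex, which anchors it in the nucleus and guides it to its targets. FTO and ALKBH5 are demethylases that can remove the mark. YTHDF1 and YTHDF2 bind the mark in the cytoplasm and are known for effects on translation and on mRNA decay, whereas YTHDC1 binds it in the nucleus. HNRNPA2B1, the protein lost in the knockout cells, is itself described as a nuclear m6A reader or as a factor that binds where m6A has opened the RNA structure.

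The pair at the centre of the complex can be told apart by 4 residues, which are shown because they mark the active and the inactive subunit among the members described here. In Mettl3 the codons for aspartate, proline, proline and tryptophan form the catalytic motif. In Mettl14 the matching place holds glutamate, proline, proline and leucine. Capitals mark the 4 codons, read 5′ to 3′ on the coding strand from GENCODE vM21 transcripts.
Mettl3: gtgatggctGACCCACCTTGGgatattcac
Mettl14: attctcctgGAGCCCCCTCTGgaagaatac
The Mettl3 codons lie on the minus strand of GRCm38 at chr14:52297581-52297592, in exon 6 of the 11 exons of the transcript, and encode residues 395 to 398 of 580. The Mettl14 codons lie on the minus strand at chr3:123374805-123374816, in exon 7 of 11, and encode residues 192 to 195 of 456. Each motif occurred once in its protein.

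In the same annotation Mettl3 spans chr14:52294841-52305128 and Mettl14 chr3:123368297-123386108. Wtap spans chr17:12966796-12994169, Zc3h13 chr14:75284373-75344426 and Rbm15 chr3:107325421-107333673. The erasers lie at chr8:91313525-91668439 (Fto) and chr11:60536381-60558512 (Alkbh5). Readers lie at chr2:180904377-180920949 (Ythdf1), chr4:132184912-132212303 (Ythdf2) and chr5:86804221-86836659 (Ythdc1). An exon of Mettl3 overlaps the gene Tox4 on the opposite strand, exons of Fto overlap 4831440D22Rik and Gm45427 on the opposite strand, and an exon of Ythdc1 overlaps Gm43055 on the same strand. How reads in these overlaps were assigned is not stated, so values of these 3 genes carry that uncertainty.

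The 4 libraries held 114136609 to 153162562 UMIs (unique molecular identifiers, each standing for 1 captured molecule), and 8648 to 11344 cells each were analysed. Any pair of libraries shared 21 to 41 cell barcodes. Clusters were named from marker genes. The epithelial markers meant for the tumour cells were nearly absent, at 40.0 to 58.2 CPM (counts scaled to the total UMIs of a class) summed over 12 genes, and Cdx2 was at 0 in all 4 tumours. Clusters in which Xist and Ptprc each averaged below 1 UMI per 10000 are therefore called Xist-low cells, provided that no marker of the host class they matched best was among their 10 leading genes and that doublets made up at most 50% of their barcodes. This rule was set with the data in view. It takes in clusters 4 and 5, which reached 3 fibroblast markers, and leaves out cluster 26, of which 61.4% of barcodes were called doublets. Xist-low cells numbered 1365 and 2681 in KO tumours, against 8593 and 7110 in WT tumours. Their median depth was 38600 and 31473 UMIs in KO tumours, against 11882 and 11715 UMIs in WT tumours. Different clusters filled the class: cluster 3, led by Gja4 and Nppb, held 67.6% and 54.1% of it in KO tumours, against 2.19% and 3.40% in WT tumours. Cluster 0, led by Aqp5 and Tnnt2, held 2.71% and 3.84% in KO tumours, against 35.9% and 18.03% in WT tumours. Host classes with at least 50 cells in every tumour were mononuclear phagocytes, neutrophils, fibroblasts, and T and NK cells, of which CD8 T cells and NK cells were also taken alone. Cluster 8, led by Chil3, reached 10 mononuclear phagocyte markers and stayed unnamed, since more of its leading genes were markers of another class. It held 274 and 336 cells in KO tumours, against 822 and 669 in WT tumours. The named mononuclear phagocytes held 2735 and 1968 cells in KO tumours, against 525 and 767 in WT tumours.

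UMIs were summed per tumour and class, and KO was compared with WT by edgeR's quasi-likelihood test over all genes, with adjusted p under 0.05 as the threshold. Levels in these comparisons are CPM scaled by TMM, a correction for differences in RNA composition. The labels number the tumours and do not say that a number is shared between groups, so tumours were treated as unpaired. P-values set a difference against the spread between tumours of a group, which edgeR estimates in part from all genes. An exact permutation test of 2 against 2 cannot go below 0.333.

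Hnrnpa2b1, the targeted gene, was lower in KO Xist-low cells. It stood at 360 and 325 CPM in KO tumours, against 565 and 552 CPM in WT tumours. The log2 fold change was -0.71 (standard error 0.13, edgeR adjusted p = 0.0271, n = 2 tumours each). The call was lost with a replicate block (adjusted p = 0.0710), without KO tumour 1 (0.0771) and without KO tumour 2 (0.142). Transcripts of the gene remained in Xist-low cells of both KO tumours. Without the position of the edit, these counts check the label only by their direction. In host classes Hnrnpa2b1 did not pass the test, with log2 fold changes from -0.13 in mononuclear phagocytes to -0.39 in neutrophils. The direction was thus the same in these unedited cells. Both KO tumours lay below both WT tumours in neutrophils, fibroblasts, T and NK cells, CD8 T cells and NK cells. In those classes 46.9% to 53% of all genes tested had groups that did not overlap, in either direction. The groups overlapped in mononuclear phagocytes.

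Among writers in Xist-low cells, Wtap had the lowest adjusted p of the 10 genes and did not pass the test. Wtap had 47.5 and 48.2 CPM in KO tumours, against 59.3 and 60.6 CPM in WT tumours. The log2 fold change was -0.33 (95% interval -0.56 to -0.09, edgeR adjusted p = 0.0813). Both KO tumours lay below both WT tumours, and the replicates of each group lay close together. Mettl14 had 24.3 and 22.1 CPM in KO tumours, against 26.5 and 29.0 CPM in WT tumours (log2 fold change -0.26, edgeR adjusted p = 0.183). Mettl3, the catalytic subunit, had 10.7 CPM in each KO tumour, against 11.5 and 12.6 CPM in WT tumours (log2 fold change -0.17, edgeR adjusted p = 0.412). For both core subunits the KO tumours lay below the WT tumours by a margin that did not pass the test. Zc3h13 had 115 and 114 CPM in KO tumours, against 136 and 119 CPM in WT tumours (log2 fold change -0.15, edgeR adjusted p = 0.423). Rbm15 had 31.1 and 24.6 CPM in KO tumours, against 19.4 and 29.4 CPM in WT tumours, and the groups overlapped (log2 fold change 0.19, edgeR adjusted p = 0.580).

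Of the erasers, Alkbh5 had 63.5 and 57.8 CPM in KO Xist-low cells, against 69.9 and 88.1 CPM in WT cells. The log2 fold change was -0.38 (95% interval -0.71 to -0.06, edgeR adjusted p = 0.120). The distance rested in part on WT tumour 2, which was the highest of the 4. Without WT tumour 1 Alkbh5 passed the test (log2 fold change -0.54, edgeR adjusted p = 0.0150), and without WT tumour 2 it did not (log2 fold change -0.21, adjusted p = 0.375). Fto had 57.8 and 64.5 CPM in KO tumours, against 67.9 and 61.7 CPM in WT tumours. Its groups overlapped, with a log2 fold change of -0.08 (95% interval -0.35 to 0.18, edgeR adjusted p = 0.664).

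Among readers in Xist-low cells, Ythdf1 and Ythdf2 had both KO tumours above both WT tumours, and neither passed the test. Ythdf1 had 68.5 and 66.7 CPM in KO tumours, against 51.8 and 58.4 CPM in WT tumours. The log2 fold change was 0.29 (95% interval 0.04 to 0.55, edgeR adjusted p = 0.127). Ythdf2 had 87.7 and 84.1 CPM in KO tumours, against 78.6 and 77.9 CPM in WT tumours (log2 fold change 0.13, edgeR adjusted p = 0.412). Ythdc1, the nuclear reader, had 136 and 135 CPM in KO tumours, against 142 and 117 CPM in WT tumours (log2 fold change 0.07, edgeR adjusted p = 0.769).

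**Figure D1:**
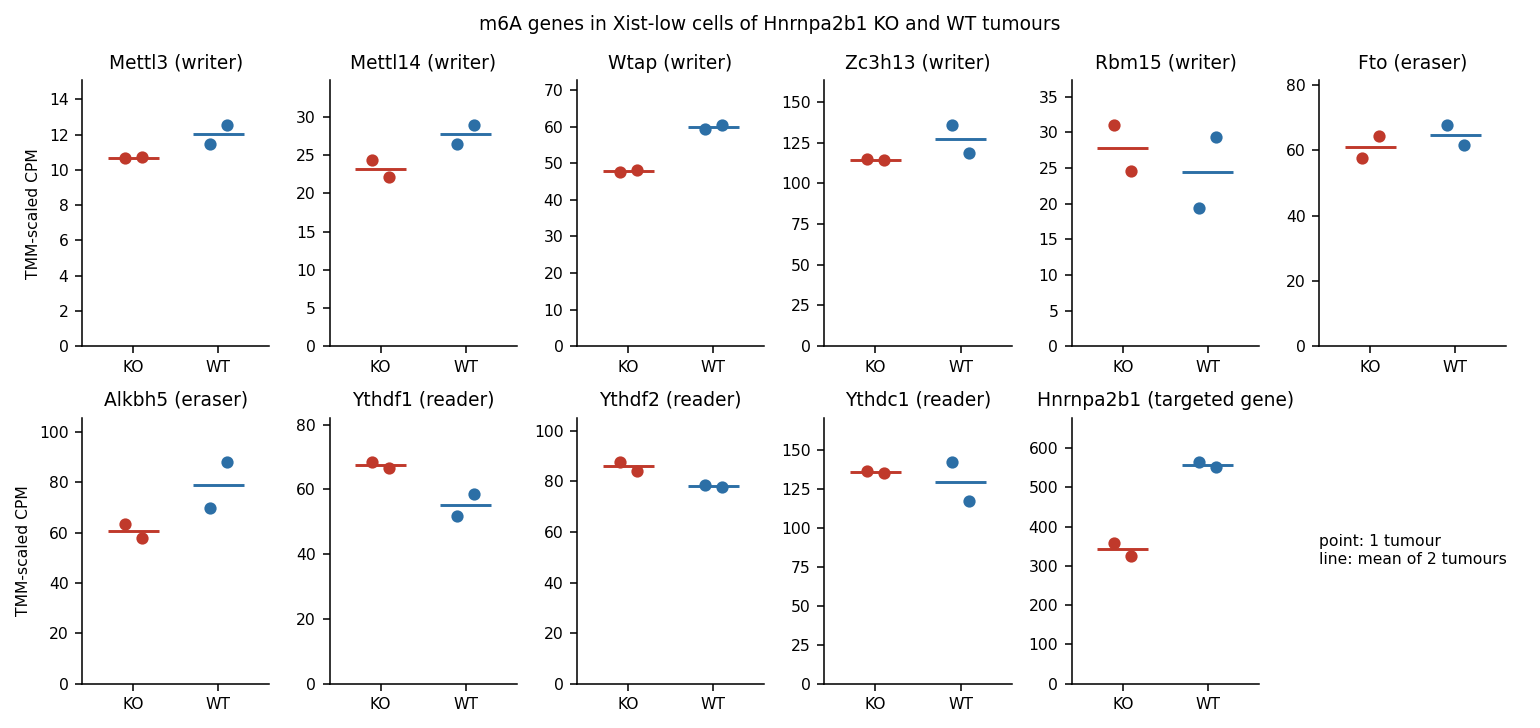
TMM-scaled CPM (y axis, from 0) of the 10 m6A genes and Hnrnpa2b1 in Xist-low cells, with KO tumours in red at the left and WT tumours in blue at the right of each panel; points are tumours and lines are means of 2. Both KO tumours lie above both WT tumours for 2 members and below them for 5, and 60.4% of all genes tested had separated groups. No member passed the test, and Hnrnpa2b1, at 360 and 325 against 565 and 552, passed it.

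Thus 0 of 10 members passed in Xist-low cells, where 9.49% of the 17994 genes tested did. At an unadjusted p under 0.05 there were 3 members (Wtap, Alkbh5 and Ythdf1) and 5353 genes, and DESeq2 also called 0 members. The groups did not overlap for 7 of 10 members, 2 higher and 5 lower in KO, and for 60.4% of all genes tested. The members' share was thus near that of all genes. The median log2 fold change of the members was -0.12, beside -0.01 for all genes.

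Since different clusters filled the class in KO and WT tumours, the levels were also read within clusters, as plain CPM with no test. In this class 5 clusters held at least 50 cells in all 4 tumours. In cluster 1, led by histone genes of dividing cells, Ythdf1 had 69.4 and 61.7 CPM in KO tumours, against 49.0 and 53.8 CPM in WT tumours. In cluster 3, the main KO cluster, Ythdf1 had 72.6 and 66.6 CPM in KO tumours, against 45.4 and 58.8 CPM in WT tumours. Ythdf1 was also higher in both KO tumours within cluster 13, led by the interferon-induced genes Tgtp1 and Iigp1, and within cluster 19, led by Ifit genes. It overlapped in cluster 6, a shallow cluster led by Gm26917.

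Wtap was lower in both KO tumours within clusters 1, 3, 13 and 19, and the groups overlapped in cluster 6, with 58.6 and 38.0 CPM in KO tumours, against 54.6 and 68.4 CPM in WT tumours. In cluster 1 it had 47.4 and 49.6 CPM in KO tumours, against 59.7 and 61.9 CPM in WT tumours. In cluster 13 the gap was small, with 60.5 and 52.9 CPM in KO tumours, against 62.3 and 60.7 CPM in WT tumours. Alkbh5 behaved differently. Within cluster 1 it had 58.2 and 55.1 CPM in KO tumours, against 57.4 and 72.6 CPM in WT tumours, and within cluster 3 it had 67.3 and 56.9 CPM in KO tumours, against 59.0 and 68.3 CPM in WT tumours. The groups thus overlapped in both, as they did in cluster 13. In cluster 19 both KO tumours were lower, with 68.9 and 62.1 CPM, against 78.3 and 99.6 CPM in WT tumours, and in cluster 6 they had 55.9 and 60.2 CPM, against 89.0 and 97.4 CPM in WT tumours. Alkbh5 was at 83.9 to 106 CPM in WT tumours within clusters 4 and 5, where no KO tumour had 50 cells. Both clusters had Lbp and Prelp among their leading genes. The part of the class's makeup in the Alkbh5 value of the whole class was not tested. Without clusters 4 and 5 the log2 fold change of Alkbh5 was -0.30 (edgeR adjusted p = 0.213) and that of Hnrnpa2b1 -0.82 (edgeR adjusted p = 0.0258). Hnrnpa2b1 was lower in both KO tumours in each of the 5 shared clusters, for example at 394 and 336 CPM in KO tumours, against 639 and 652 CPM in WT tumours, within cluster 1. In clusters 4 and 5 it stood at 373 to 394 CPM in WT tumours, near the KO values of cluster 1.

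**Figure D2:**
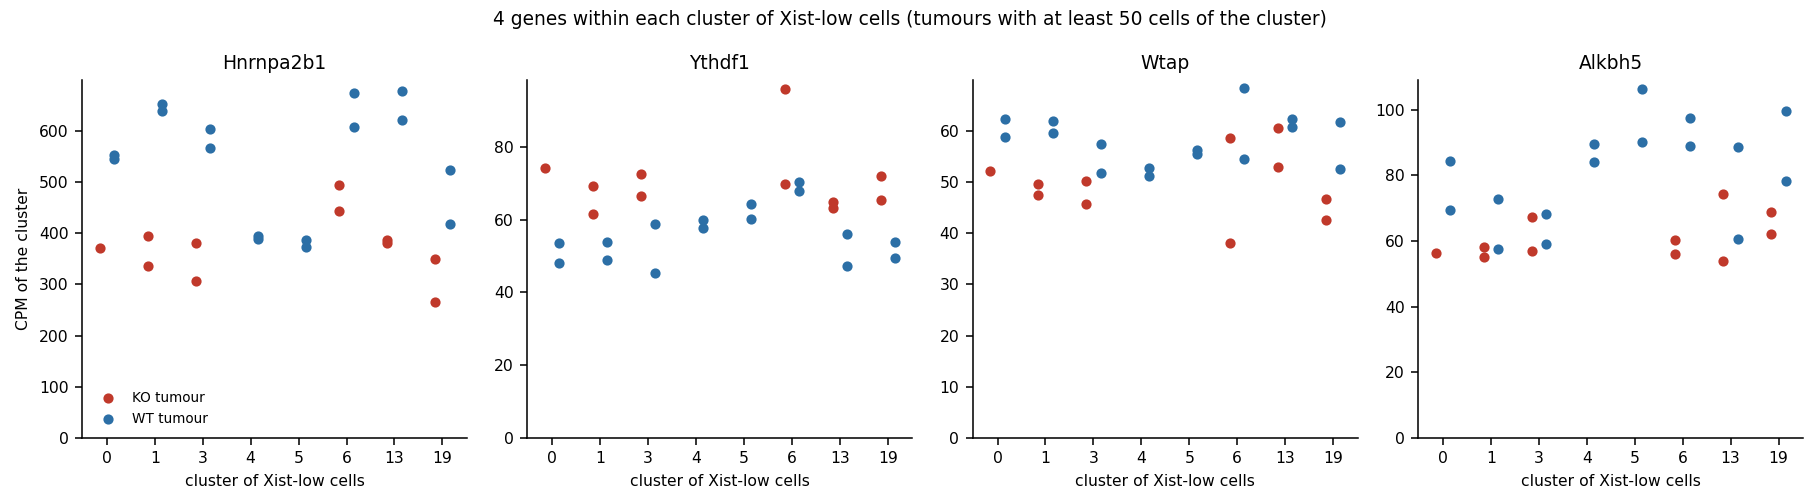
CPM (y axis, from 0) of Hnrnpa2b1, Ythdf1, Wtap and Alkbh5 within each numbered cluster of Xist-low cells (x axis), with KO tumours in red left of WT tumours in blue; a point is 1 tumour with at least 50 cells of the cluster. Ythdf1 lies higher and Wtap lower in KO within clusters 1, 3, 13 and 19 and both overlap in cluster 6, whereas Alkbh5 overlaps in clusters 1, 3 and 13 and lies lower in KO within clusters 6 and 19.

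Other features of Xist-low cells moved with genotype. Malat1, a nuclear RNA read here as a sign of RNA quality, took 0.385% and 0.400% of UMIs in KO tumours, against 0.776% and 0.700% in WT tumours. Summed cell-cycle genes stood at 4448 and 4427 CPM in KO tumours, against 3499 and 3302 CPM in WT tumours. The sum of 10 fibroblast markers was 977 and 553 CPM in KO tumours, against 1511 and 1984 CPM in WT tumours. That of 8 T cell markers was 24.7 and 17.5 CPM in KO tumours, against 7.18 and 4.08 CPM in WT tumours, and none of either list was at 0. The part of each in the members' values was not tested.

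Depth also differs, and shares of cells with a UMI follow it. Before thinning, 81.1% and 78.3% of Xist-low cells held a Ythdf1 UMI in KO tumours, against 45.6% and 48.5% in WT tumours. With every cell thinned to 1000 UMIs the shares were 6.62% and 6.996% in KO tumours, against 5.07% and 5.72% in WT tumours. A Wtap UMI was held by 75.8% and 70.0% of cells in KO tumours, against 48.9% and 49.8% in WT tumours, before thinning. After thinning the order turned, with 5.095% and 3.81% in KO tumours, against 5.45% and 6.04% in WT tumours. Of Xist-low cells, 1315 and 2573 in KO tumours, against 8370 and 6833 in WT tumours, were deep enough to be thinned, and the shallower ones were left out. No class here is known to lack these genes, so no background share is given.

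In host cells, where the gene itself is not edited, 0 of 10 members passed in mononuclear phagocytes, beside 1.39% of genes. In fibroblasts and in T and NK cells it was 0 of 10 members, beside 0% of genes in either class. In CD8 T cells 0 of 10 passed, beside 0.803% of genes, and in NK cells 0 of 10, beside 6.27%. In neutrophils Mettl3, Mettl14 and Fto were removed by the filter on low counts, 0 of the remaining 7 passed, and 0% of genes did. DESeq2 called 0 members in each of these classes. At an unadjusted p under 0.05 edgeR gave 635 genes in neutrophils, 1590 in fibroblasts and 2733 in T and NK cells, and DESeq2 called 0, 150 and 327 genes after adjustment. The count of genes called in T and NK cells was 1062 with a replicate block and 3013 without WT tumour 2, so the 0 there depends on the fit.

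The share of members with non-overlapping groups lay above that of all genes in some host classes and below it in others. There were 5 of 10 members in mononuclear phagocytes beside 51.7% of genes, 3 of 7 in neutrophils beside 49.7%, and 7 of 10 in fibroblasts beside 46.9%. In T and NK cells there were 5 of 10 beside 53% of genes, in CD8 T cells 2 of 10 beside 50.9%, and in NK cells 7 of 10 beside 52.8%.

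Of the writers, Mettl14 had the largest log2 fold changes in host cells, and none passed. In mononuclear phagocytes it had 8.73 and 9.85 CPM in KO tumours, against 17.6 and 14.8 CPM in WT tumours (log2 fold change -0.80, 95% interval -1.33 to -0.27, edgeR adjusted p = 0.127). In fibroblasts it had 7.29 and 5.90 CPM in KO tumours, against 11.8 and 16.5 CPM in WT tumours (log2 fold change -1.08, 95% interval -1.91 to -0.25, edgeR adjusted p = 0.298). Both KO tumours were below both WT tumours in each class. Epithelial markers, summed over 12 genes, moved the same way in these classes. In mononuclear phagocytes they summed to 11.3 and 13.3 CPM in KO tumours, against 29.6 and 31.1 CPM in WT tumours, and in fibroblasts to 9.50 and 7.32 CPM in KO tumours, against 23.0 and 16.9 CPM in WT tumours. Clusters differed too, as cluster 2, led by Nos2 and Arg1, held 1891 and 1201 of the mononuclear phagocytes in KO tumours, against 63 and 257 in WT tumours. The part of either in the Mettl14 values was not tested. In T and NK cells Mettl14 had 19.8 and 12.9 CPM in KO tumours, against 24.3 and 19.4 CPM in WT tumours, and the groups overlapped. Mettl3 showed no such lower level in host cells of KO tumours: its log2 fold change was 0.04 in mononuclear phagocytes (95% interval -0.74 to 0.82) and 0.43 in fibroblasts (95% interval -0.42 to 1.29). Zc3h13 was higher in both KO tumours in CD8 T cells, with 180 and 170 CPM in KO tumours, against 139 and 136 CPM in WT tumours (log2 fold change 0.35, edgeR adjusted p = 0.400). In CD8 T cells the cell-cycle list summed to 2469 and 2253 CPM in KO tumours, against 5520 and 2905 CPM in WT tumours, and NK markers to 1855 and 2000 CPM in KO tumours, against 3429 and 3737 CPM in WT tumours. Subcluster T8 held 153 of 1020 and 138 of 954 CD8 T cells in KO tumours, against 50 of 80 and 19 of 69 in WT tumours. The part of these in the Zc3h13 values was not tested. Wtap and Rbm15 had log2 fold changes between -0.29 and 0.43 over the host classes.

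The erasers did not pass in host cells. Alkbh5 had log2 fold changes of -0.02 in mononuclear phagocytes and 0.02 in neutrophils, and the groups overlapped in both. In T and NK cells it had 72.8 and 70.1 CPM in KO tumours, against 57.0 and 65.2 CPM in WT tumours (log2 fold change 0.23, edgeR adjusted p = 0.482). Shallow subclusters filled this class unevenly. T11 held 1 and 9 cells in KO tumours, against 248 and 4 in WT tumours. T6 held 48 and 60 cells in KO tumours, against 4 and 309 in WT tumours. The part of this in the values of T and NK cells was not tested. Fto had 45.1 and 34.8 CPM in NK cells of KO tumours, against 24.1 and 27.5 CPM in WT tumours (log2 fold change 0.65, 95% interval -0.08 to 1.39, edgeR adjusted p = 0.290). In CD8 T cells Fto stood the other way, with 31.2 and 33.4 CPM in KO tumours, against 40.1 and 49.2 CPM in WT tumours (log2 fold change -0.45, edgeR adjusted p = 0.466). WT tumours gave few cells of either class, 160 and 127 NK cells and 80 and 69 CD8 T cells.

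Among readers in host cells, Ythdc1 in NK cells had 206 and 213 CPM in KO tumours, against 150 and 147 CPM in WT tumours. The log2 fold change was 0.50 (95% interval 0.10 to 0.89, edgeR adjusted p = 0.122), and the groups did not overlap. Different subclusters filled the NK class: T14 held 1 and 4 cells in KO tumours, against 110 and 3 in WT tumours, and T2 held 265 and 303 in KO tumours, against 5 and 88 in WT tumours. Malat1 took 1.94% and 2.00% of NK cell UMIs in KO tumours, against 1.46% and 1.58% in WT tumours, and Neat1 stood at 416 and 425 CPM in KO tumours, against 232 and 242 CPM in WT tumours. Dendritic markers summed to 1943 and 2044 CPM in KO tumours, against 980 and 1079 CPM in WT tumours. The part of these in the Ythdc1 values was not tested. Mononuclear phagocytes showed 128 CPM of Ythdc1 in each KO tumour, against 106 and 110 CPM in WT tumours (log2 fold change 0.25, edgeR adjusted p = 0.435). Ythdf2 was lower in both KO tumours in mononuclear phagocytes, neutrophils, fibroblasts and NK cells, with log2 fold changes from -0.21 to -0.54 and adjusted p of 0.272 to 0.701. In fibroblasts it had 44.9 and 37.4 CPM in KO tumours, against 50.6 and 64.0 CPM in WT tumours. Ythdf1 had log2 fold changes between -0.34 and 0.13 in host classes.

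**Figure D3:**
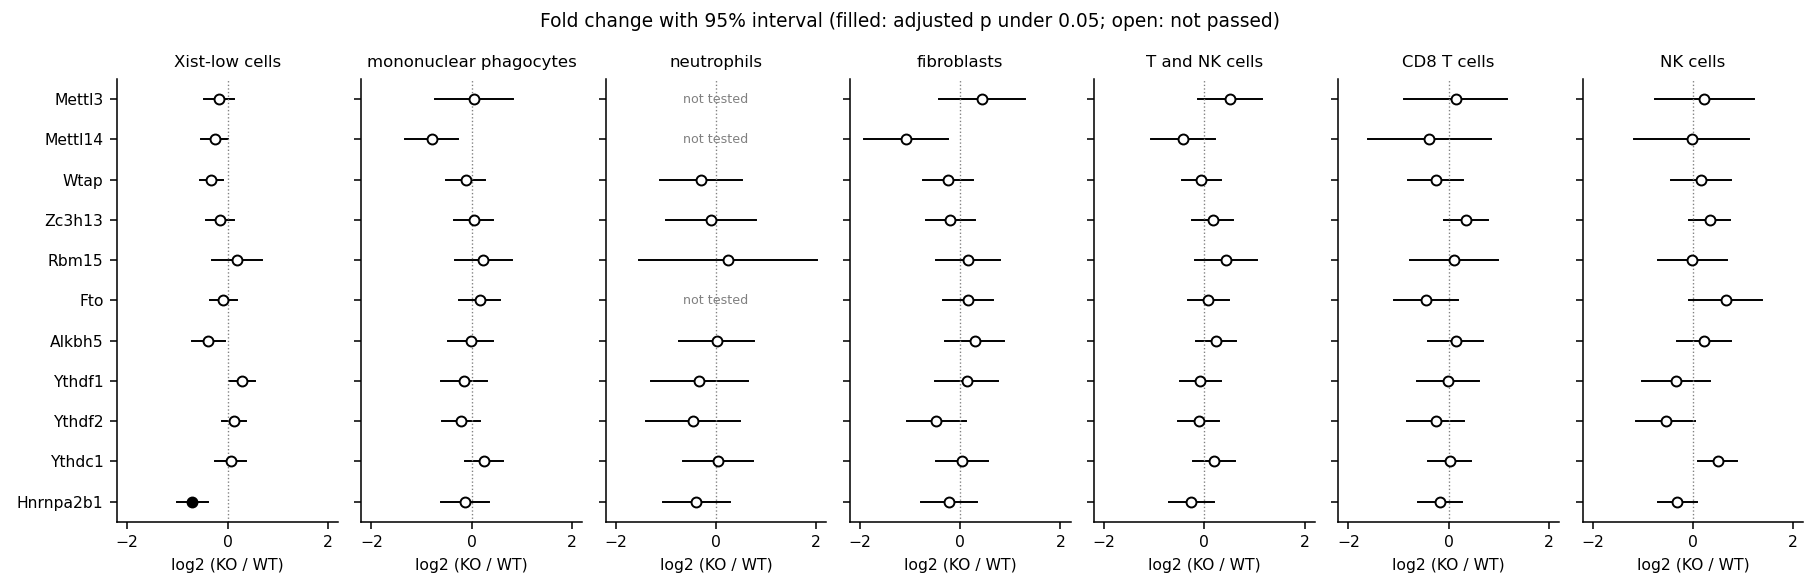
Log2 fold change of KO over WT (x axis) with its 95% interval for the 10 m6A genes and Hnrnpa2b1 (rows) in 7 cell classes (panels); filled points have an edgeR adjusted p under 0.05 and open points do not. The single filled point is Hnrnpa2b1 in Xist-low cells at -0.71, and the widest interval is that of Rbm15 in neutrophils.

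Whether a change in Xist-low cells differed from that in host cells was tested directly, with the tumour as a term in the model. Against mononuclear phagocytes 0 of 10 members passed, beside 4.43% of genes. The change of Ythdf1 differed by 0.41 on the log2 scale (95% interval 0.02 to 0.79, edgeR adjusted p = 0.219) and that of Alkbh5 by -0.40 (95% interval -0.77 to -0.04, edgeR adjusted p = 0.202). The change of Hnrnpa2b1 itself differed by -0.62 (edgeR adjusted p = 0.0940). The same test against the other host classes was added after the data were seen. No member passed against neutrophils (0.376% of genes), where Mettl3, Mettl14 and Fto entered only through Xist-low cells, fibroblasts (1.76%), T and NK cells (5.28%) or NK cells (8.01%). Against CD8 T cells 1 of 10 passed, beside 6.93% of genes. This was Zc3h13, whose change differed by -0.59 (95% interval -0.98 to -0.20, edgeR adjusted p = 0.0430), and the call was lost whichever tumour was left out (adjusted p of 0.135 to 0.847). The median difference of all genes in that test was -0.19.

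Levels across classes are given as plain CPM with no test, since the classes were built from the same cells. Each value is the mean ± SD over all 4 tumours, KO and WT together (n = 4). Fto had the widest range of class means, 2.06 on the log2 scale over 6 classes that share no cells. This rests on neutrophils, where Fto had 14 and 3 UMIs in KO tumours, against 2 and 4 in WT tumours. Over the other 5 classes, an alternative chosen after seeing the data, its range was 1.02, below those of Mettl14 (1.29), Rbm15 (1.12) and Mettl3 (1.05). Fto averaged 62.9 ± 2.40 CPM in Xist-low cells, against 54.9 ± 3.53 CPM in fibroblasts, and the ranges of these classes did not overlap. Single clusters did reach into the fibroblast range, whose highest value was 57.5 CPM. Fto was at 48.8 CPM in KO tumour 1 within cluster 13 and 56.1 CPM in WT tumour 2 within cluster 19. Within clusters 4 and 5 it was at 64.8 to 81.6 CPM in WT tumours. T and NK cells followed at 38.2 ± 4.47 CPM, below every fibroblast value, then CD8 T cells, NK cells and mononuclear phagocytes (31.0 ± 1.90 CPM), whose ranges overlapped in turn. Neutrophils were lowest at 15.1 ± 13.4 CPM, from 6.22 to 35.1 CPM over tumours. Alkbh5, the other eraser, showed no such order: it ran between 59.3 ± 9.01 CPM in NK cells and 85.2 ± 8.30 CPM in mononuclear phagocytes, with overlap at each step.

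Readers of the cytoplasm had their highest class means in Xist-low cells. Ythdf1 was at 61.5 ± 9.54 CPM there, the highest mean of the 7 classes. Its lowest tumour, at 50.4 CPM, lay just above the highest value of T and NK cells, 50.2 CPM, but below the highest values of fibroblasts (54.5 CPM), NK cells (62.7 CPM) and neutrophils (70.2 CPM), so Ythdf1 did not stand apart from those classes. Ythdf2 was at 82.2 ± 7.63 CPM in Xist-low cells, against 54.2 ± 5.38 CPM in T and NK cells, without overlap with any other of the 7 classes. This does not hold in each cluster. Within clusters 4 and 5 Ythdf2 stood at 58.4 to 71.3 CPM in WT tumours, and the highest host value was 70.2 CPM, in neutrophils. Over the host classes Ythdf1 ran between 40.7 and 45.9 CPM and Ythdf2 between 47.7 and 54.2 CPM, with overlap at each step. Ythdc1 had another order. It was highest in T and NK cells (179 ± 22.9 CPM) and NK cells (177 ± 45.9 CPM) and lowest in fibroblasts (94.7 ± 6.47 CPM), below every value of mononuclear phagocytes (118 ± 8.28 CPM). Ythdc1 stood at 231 to 239 CPM in regulatory T cells of KO tumours, against 224 CPM in the WT tumour with at least 50 of these cells.

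Core writers differed from each other in their order. Mettl3 averaged 15.8 ± 2.90 CPM in NK cells, of which WT tumours gave only 160 and 127. In Xist-low cells it averaged 11.4 ± 0.780 CPM, and their lowest tumour was above every value of mononuclear phagocytes (7.77 ± 1.70 CPM). Not every cluster lay above the highest of these values, 9.67 CPM. Mettl3 was at 8.21 CPM in KO tumour 2 within cluster 0, on 20 UMIs, and at 9.96 to 12.5 CPM over the tumours within cluster 1. Neutrophils held 9 Mettl3 UMIs in all 4 tumours, namely 6 and 0 in KO tumours, against 1 and 2 in WT tumours, so no level is read there. Mettl14 was highest in Xist-low cells at 25.5 ± 2.86 CPM, against 19.1 ± 4.92 CPM in T and NK cells, with overlap. It was lowest in fibroblasts at 10.4 ± 5.09 CPM. Among adaptors, Zc3h13 was at 156 ± 28.05 CPM in CD8 T cells and 154 ± 19.2 CPM in T and NK cells. Its level in Xist-low cells, 121 ± 8.65 CPM, was above every value of mononuclear phagocytes (93.2 ± 6.08 CPM). Rbm15 ran from 14.5 ± 1.35 CPM in fibroblasts to 31.6 ± 2.89 CPM in NK cells. Wtap was the most even of the 5 writers, between 42.4 ± 6.21 CPM in fibroblasts and 57.8 ± 11.2 CPM in CD8 T cells, with overlap at each step.

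**Figure D4:**
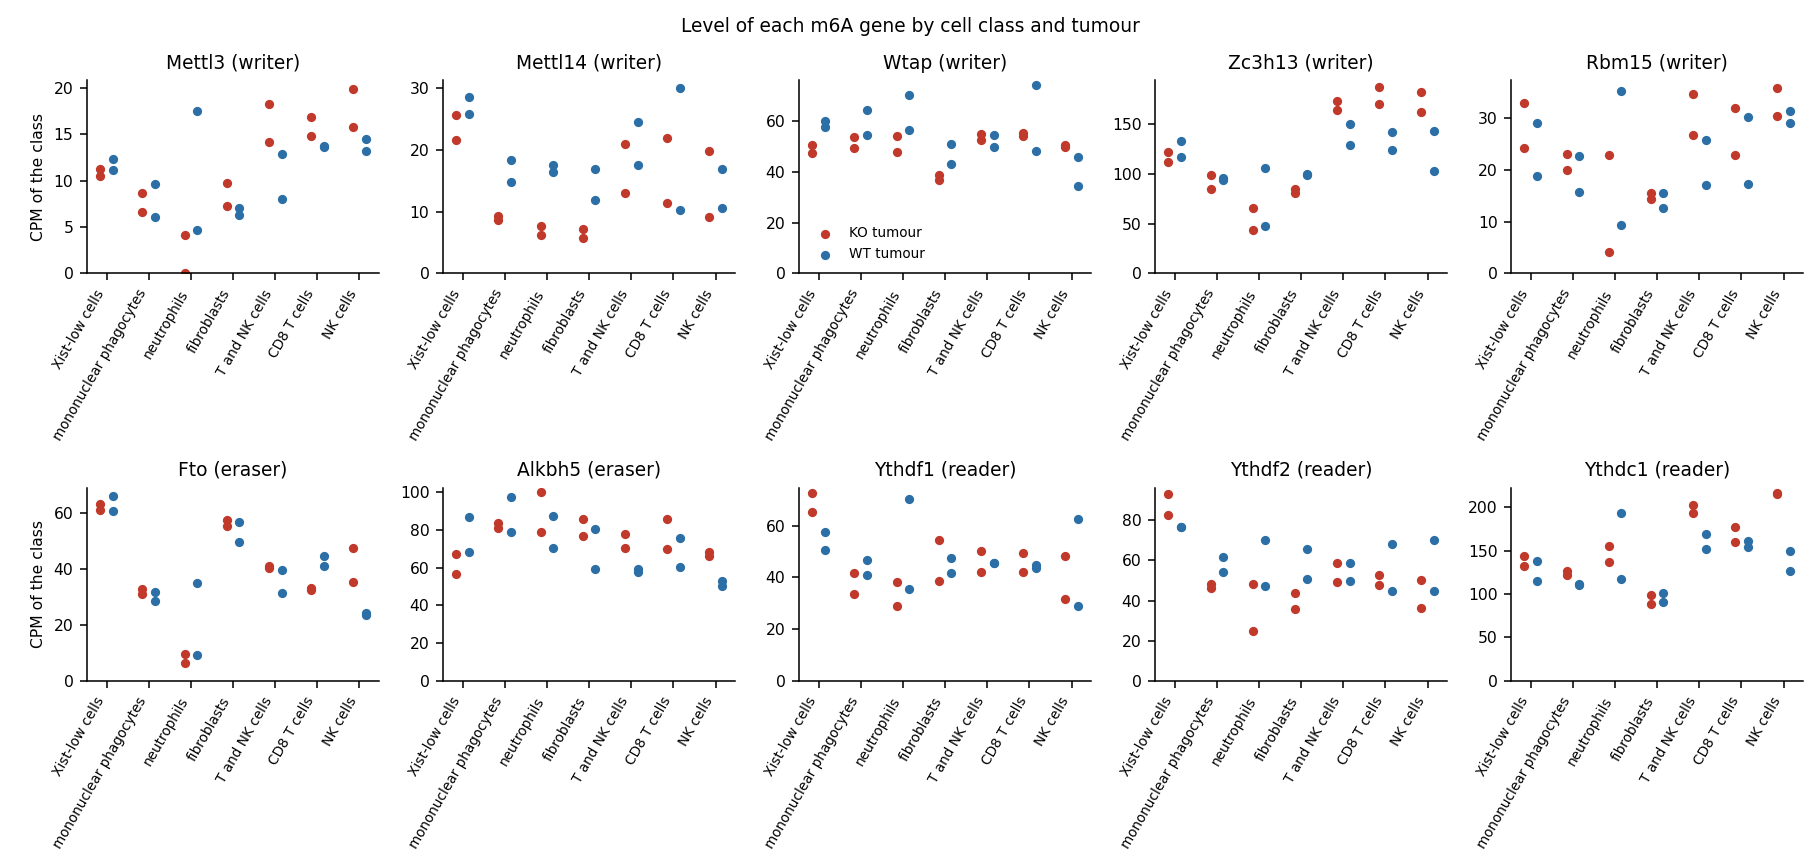
Plain CPM (y axis, from 0) of each of the 10 m6A genes in 7 cell classes (x axis), with KO tumours in red left of WT tumours in blue and 1 point per tumour. As whole classes, Fto and Ythdf2 lie highest in Xist-low cells without overlap with any other class shown, which does not hold within each cluster. Ythdf1 overlaps fibroblasts, NK cells and neutrophils, and Mettl14 lies lower in both KO tumours in mononuclear phagocytes and fibroblasts.

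For Fto, the genes of closest pattern over the 6 classes, neutrophils included, among 6546 searched were Pdha1 (r = 0.994), B230219D22Rik (0.992) and Zwint (0.991), by Pearson r. The class means come from the same 4 libraries and differ in depth, so this is a description.

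The wider m6A list held 21 genes, with 8 other writers or partners, 10 other readers and 3 genes of the methyl donor cycle. In Xist-low cells 1 rose, 1 fell and 19 did not pass, beside 9.49% of all genes. Igf2bp1, an RNA-binding protein that reads m6A and stabilises its targets, rose to 37.7 and 34.8 CPM in KO tumours, against 24.3 and 26.5 CPM in WT tumours (log2 fold change 0.51, standard error 0.11, edgeR adjusted p = 0.0367). Mat2b, the regulatory subunit of the enzyme that makes S-adenosylmethionine, fell to 41.3 and 44.2 CPM in KO tumours, against 61.9 and 65.1 CPM in WT tumours (log2 fold change -0.57, standard error 0.10, edgeR adjusted p = 0.0259). Mettl16, a methyltransferase that acts on U6 RNA and on Mat2a mRNA, had 92.6 and 99.3 CPM in KO tumours, against 77.2 and 73.9 CPM in WT tumours (log2 fold change 0.35, edgeR adjusted p = 0.0830). Calls of Igf2bp1 and Mat2b were lost with a replicate block (adjusted p = 0.0899 for Igf2bp1 and 0.0591 for Mat2b), with cells thinned to 1000 UMIs (0.150 and 0.0637), and without either KO tumour. By group, 0 of 8 writers passed, 1 of 10 readers rose and 1 of 3 donor cycle genes fell, with median log2 fold changes of -0.07, 0.16 and 0.03. In each host class 0 genes of the list rose and 0 fell, with 21 tested in mononuclear phagocytes, fibroblasts and T and NK cells, 20 in CD8 T cells, 18 in NK cells and 11 in neutrophils.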

How the data were processed

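The authors deposited UMI counts per gene and cell barcode as 10x matrices, 1 per tumour. The matrices came from Cell Ranger (6.1.2 per the file headers, 5.0.1 per the labels' protocols), and the submitters' processing notes name Seurat 5.1.0 and mm10. Coordinates are those of GRCm38 with GENCODE vM21, where every feature was found. Members and lists were chosen with earlier results of these data known.

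Barcodes under 300 genes or 500 UMIs, or with over 20% of UMIs from mitochondrial genes, were dropped. The highest Scrublet scores, 0.8% per 1000 barcodes, were removed as doublets, since the caller's own threshold marked 0% to 4.36% of barcodes. Cells were clustered in Python 3.11.15 with scanpy 1.11.5 (2000 variable genes, 30 components, 15 neighbours) and leidenalg 0.10.2 (resolution 1). No member was among the variable genes. A cluster took a class name from at least 3 markers. Clusters 4 and 5 reached 3 fibroblast markers and were kept as Xist-low cells after the data were seen, and the Chil3 cluster stayed unnamed. Both choices were varied in the comparison of KO with WT, and not in the difference tests.

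Class sums of UMIs per tumour were tested in R 4.3.3 with edgeR 4.0.16 (filterByExpr, TMM, glmQLFit, Benjamini-Hochberg adjustment over all genes tested), with limma 3.58.1 loaded. Alternatives were RLE scaling, DESeq2 1.42.0, no filter on low counts, each tumour left out, a replicate block, doublets kept, cells thinned to 1000 UMIs and cells of at least 5000 UMIs. The difference tests used the tumour as a term. Scripts were tested on simulated data, in which changed genes had at least 10 CPM and the spread followed the trend over all genes. The edgeR test then recovered 50.7% of 1.5-fold changes in Xist-low cells and 5.97% in mononuclear phagocytes. For 2-fold changes it recovered 98.5% and 53.7%, and changes below 1.5-fold were not simulated. These shares do not cover genes under 10 CPM, such as Mettl3 in mononuclear phagocytes (7.77 CPM on average). All 10 members and Hnrnpa2b1 were named in every class, with genes of the wider list that passed in a class and the 3 of largest log2 fold change in Xist-low cells. Counts limit precision, and p-values and intervals also take in the spread between the 2 tumours of each group.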

Additional observations from a re-analysis of the deposited data

Results flagged for a closer look

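Changes that differed between Xist-low cells and a host class by a test of the difference itself are given here as the change in Xist-low cells minus that in the host class, on the log2 scale, with edgeR adjusted p. The test against mononuclear phagocytes was planned, and the tests against the other host classes were added after the data were seen. Xist-low cells made up 15.8% and 30.6% of cells in KO tumours, against 75.7% and 69.9% in WT tumours, and the part of this in the host values was not tested. With 1 tumour left out in turn, the difference of Igf2bp1 from fibroblasts passed in all 4 fits (2.64 to 2.93), and each of the others lost its call in at least 1 fit.

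Against CD8 T cells the change of Hnrnpa2b1 differed by -0.62 (adjusted p = 0.000121), a call lost without KO tumour 1 and without KO tumour 2. The change of Zc3h13 differed by -0.59 (adjusted p = 0.0430), a call lost whichever tumour was left out.

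Igf2bp genes gave 5 of these differences. Igf2bp3 differed by 1.44 from mononuclear phagocytes (adjusted p = 0.0351, 1.16 to 1.64 with 1 tumour left out), where it had 1.82 and 2.73 CPM in KO tumours, against 5.76 and 5.73 CPM in WT tumours. It differed by 1.47 from fibroblasts (adjusted p = 0.0398, 1.44 to 1.54 with 1 tumour left out), with 5.01 and 5.62 CPM in KO tumours, against 14.4 and 12.8 CPM in WT tumours. Igf2bp1 differed by 2.75 from fibroblasts (adjusted p = 0.0150), on 11 and 6 UMIs in KO tumours, against 18 and 20 UMIs in WT tumours. Igf2bp2 differed by 1.01 from T and NK cells (adjusted p = 0.0180, 0.83 to 1.18 with 1 tumour left out). It differed by 1.65 from CD8 T cells (adjusted p = 0.0164), on 47 and 27 UMIs in KO tumours, against 13 and 3 UMIs in WT tumours. Without WT tumour 1 that difference was 0.62 (adjusted p = 0.952), and without WT tumour 2 it was 2.13. In Xist-low cells Igf2bp3 had 41.3 and 42.6 CPM in KO tumours, against 42.6 and 35.7 CPM in WT tumours.

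Mettl16 differed by 0.76 from T and NK cells (adjusted p = 0.0383, 0.65 to 0.85 with 1 tumour left out), where it had 35.0 and 34.7 CPM in KO tumours, against 47.8 and 47.6 CPM in WT tumours. Ythdf3 differed by -1.36 from CD8 T cells (adjusted p = 0.0123, lost whichever tumour was left out, -1.65 to -1.10), on 296 and 211 UMIs in KO tumours, against 9 and 5 UMIs in WT tumours. Ahcy differed by 3.65 from NK cells (2.61 to 5.2 with 1 tumour left out), on 1 and 4 UMIs in KO tumours, against 7 and 2 UMIs in WT tumours. It did not pass the filter within NK cells and entered this test only through Xist-low cells, so no p is given for it.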

How the results depend on the processing

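The numbers of genes called varied with the fit. In Xist-low cells (1708 genes) there were 2649 with DESeq2, 3872 with no filter on low counts, 835 with cells thinned to 1000 UMIs, 874 without clusters 4 and 5, and 844 to 3059 with 1 tumour left out. In mononuclear phagocytes (179) there were 526 with DESeq2, 1607 with no filter, 1076 with doublets kept, 0 with the Chil3 cluster, and 216 to 1295 with 1 tumour left out. In neutrophils (0) there were 23 with no filter, 23 with the replicate block, 11 with doublets kept, 8 thinned, and 1 to 106 with 1 tumour left out. In fibroblasts (0) there were 150 with DESeq2, 828 with no filter, and 0 to 1 with 1 tumour left out. In T and NK cells (0) there were 327 with DESeq2, 1555 with no filter, 1062 with the replicate block, 543 with doublets kept, 401 thinned, 1366 in cells of at least 5000 UMIs, and 17 to 3013 with 1 tumour left out, the highest without WT tumour 2. In CD8 T cells (83) there were 127 with DESeq2, 602 with no filter, 251 with the replicate block, 4 with doublets kept, 3 in cells of at least 5000 UMIs, and 0 to 1025 with 1 tumour left out. In NK cells (533) there were 153 with DESeq2, 199 thinned, 137 in cells of at least 5000 UMIs, and 174 to 645 with 1 tumour left out. For the differences, 1942 genes were called against mononuclear phagocytes with no filter (788 with it) and 578 to 998 with 1 tumour left out. With 1 tumour left out there were 0 to 173 against neutrophils (61), 260 to 714 against fibroblasts (306), 168 to 3347 against T and NK cells (954), 165 to 776 against CD8 T cells (1166) and 311 to 1133 against NK cells (1351). A lone tumour was then assumed to vary like the others.

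Of the members, 1 was called in Xist-low cells with no filter (Alkbh5, log2 fold change -0.42, edgeR adjusted p = 0.0243) and 0 to 1 with 1 tumour left out. In the differences 0 to 1 were called against T and NK cells and against NK cells, and 0 to 0 against CD8 T cells (1 with all tumours). Hnrnpa2b1 in Xist-low cells had log2 fold changes of -0.71 with the replicate block and -0.78 to -0.63 with 1 tumour left out. It had -0.25 to 0.017 in mononuclear phagocytes with 1 tumour left out, and 0.18 in NK cells of at least 5000 UMIs. The cause of these shifts was not tested. No called value reversed under an alternative that was run.

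Deviations of same-numbered tumours from their group had correlations of -0.58 to 0.06 over the classes. With so few tumours per group, these values cannot decide whether the numbers pair the tumours. The replicate block ended the calls of Hnrnpa2b1, Igf2bp1 and Mat2b and changed no other call of a named gene. Crossed pairing was chosen after seeing the data. It called 3 of 10 members and 4433 of 17994 genes in Xist-low cells. In mononuclear phagocytes it called 1 of 10 members and 1840 of 12851 genes. For fibroblasts the counts were 0 of 10 members and 704 of 11565 genes.

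With cells weighted equally, 7 of 70 levels moved beyond 1 SD, namely Mettl3 in Xist-low cells (12.8 CPM), Fto in Xist-low cells (66.9), Ythdc1 in T and NK cells (204.2), Mettl3 in CD8 T cells (17.3), Ythdc1 in CD8 T cells (175.6), Mettl14 in NK cells (19.5) and Rbm15 in NK cells (35.4). Wtap was found in 72.9% of KO and 49.4% of WT Xist-low cells unthinned, and in 21.7% of KO and 25.4% of WT cells at 5000 UMIs. Ythdf1 was found in 79.7% of KO and 47.0% of WT cells unthinned, and in 28.3% of KO and 24.8% of WT cells at 5000 UMIs.

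With 2 tumours a group, intervals are wide, and neutrophils (51 cells in WT tumour 1) limit what can be read of Mettl3, Mettl14 and Fto. WT tumours also gave few CD8 T cells (80 and 69) and NK cells (160 and 127).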

Other observations

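Ythdc1 was also read, as plain CPM with no test, in T cell classes too small for the comparisons. CD4 T cells held 260 and 247 CPM in KO tumours, against 156 CPM in WT tumour 2, where 24 UMIs stood behind the value. Gamma-delta T cells held 206 and 228 CPM in KO tumours, against 198 CPM in WT tumour 1, on 17 UMIs. Tumours with under 50 cells of a class gave no value.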
